A study of Mus musculus with 135 samples.

Results

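The 351 genes described here lie on mouse chromosome 3 of the mm10 build with their start within about 10 Mb on either side of Tet2. They were taken by position alone from the 53715 genes of the authors' count tables, and Tet2 itself was left out. The question was whether genes next to the targeted gene differ between Tet2 knockout and wild-type oocytes. The window holds 95 protein-coding genes, 76 pseudogenes and 17 miRNA genes, and the remainder are mostly non-coding transcripts.

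The study sequenced RNA of single ovulated mouse oocytes arrested at metaphase II (MII), from females of C57BL6/129 strain. Oocytes whose titles share an identifier form a set, and the set was taken as the replicate. Nothing in the labels says that a set is 1 animal, so a p-value here measures the spread between sets, which may be technical. The comparison rests on 5 sets of 8 oocytes whose names begin with T: T148, T211 and T231 from wild-type females (WT) and T213 and T214 from Tet2 knockout females (Tet2KO), all aged 2 to 4 months (young). The other 8 sets give further levels: Young_WT__246 (young WT), Old_WT_365 and Old_WT_247 (WT aged 10 to 12 months, old), S161 (old Tet2KO), T146 and Young_Tet1-/-_201 (young Tet1KO), and Old_Tet1-/-_209 and Old_Tet1-/-_315 (old Tet1KO, the latter a single oocyte). The labels give the Tet2 knockout by name only: the deleted exons, the origin of the embryonic stem cells and the number of backcrosses are not given in the sources used here.

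TET2 is a dioxygenase that oxidises 5-methylcytosine in DNA and so takes part in its removal. A gene targeted in cells of one mouse strain and kept in animals of mixed strain carries a stretch of the first strain's chromosome along with it, and genes on that stretch can differ between mutant and wild type because of their own sequence. In a C57BL6/129 colony, WT sisters may carry either strain's version of the region too. Which strain's alleles each set carried cannot be read from gene counts and was not tested.

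Total gene counts per oocyte ran from 2354503 to 6374555 in the 5 T-named sets. The 8 fixed oocyte markers, among them the zona pellucida genes Zp1, Zp2 and Zp3, were present in every group. Their summed level was 15451.5 to 19213.2 CPM, counts scaled to the total of the set, in the WT sets and 13443.9 to 16590.1 CPM in the Tet2KO sets. The 10 cumulus and granulosa cell markers summed to 45.2 to 66.7 CPM in WT and 50.6 to 58.5 CPM in Tet2KO. Only 2 of them reached 1 CPM in a set of either genotype, and Amh and Fshr were at 0 in both.

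Of the 351 genes, 159 had no count in any of the 40 T-named oocytes and another 113 stayed below the filter of 1 CPM in at least 2 sets. The remaining 79 were tested, 59 of them protein coding, and 49 of them overlap another annotated gene, where reads were counted for both. In 78 of the 79 genes sets of both genotypes reached 1 CPM; the exception was Lrit3, which passed through its 2 Tet2KO sets alone, so that some difference in it follows from the filter. Just inside the lower edge of the window, Prss12 had a log2 change of 0.18, and just outside it Mettl14 had 0.10. At the upper edge the pseudogene Gm2574 inside had -0.18 and Gm42707 outside had 0.13.

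Tet2 (ENSMUSG00000040943.12, chr3:133463679-133545139, minus strand) was lower but not absent in the Tet2KO sets. Its level was 2.22, 2.67 and 3.20 CPM in T148, T211 and T231, against 1.30 and 1.18 CPM in T213 and T214. The sets of the 2 genotypes did not overlap, with a mean of 2.70 ± 0.487 (SD, n = 3) in WT and 1.24 ± 0.0836 (SD, n = 2) in Tet2KO. The log2 change was -1.15 ± 0.33 (SE), with p = 0.0101 and adjusted p = 0.665 in edgeR's quasi-likelihood test. Old Tet2KO set S161 was at 1.27 CPM, below Old_WT_365 at 3.3 and Old_WT_247 at 4.76. A gene-level count does not say which exons the reads come from. The young Tet1KO set T146 at 1.88 CPM, Young_Tet1-/-_201 at 1.48 and Young_WT__246 at 1.53 lay between the T-named WT and Tet2KO sets. Young_WT__246 is itself WT, so low Tet2 was not confined to Tet2KO. Old_Tet1-/-_209 was at 2.27 CPM. Old_Tet1-/-_315, a single oocyte with 8 counts, was at 0.97 CPM, below both young Tet2KO sets.

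No flanking gene was called between young Tet2KO and young WT. Over all 13455 genes tested, 5 were called higher and 1 lower at an adjusted p under 0.05, which is 0.0372% and 0.00743% of the genes. Among the 79 flanking genes, 0 were called higher and 0 lower with edgeR. DESeq2 called 1 of them, Lrit3, beside 42 of all 13455 genes. At an unadjusted p under 0.05 edgeR gave 6 of 79 flanking genes, or 7.59%, beside 7.02% of all genes. Single sets moved this count: it was 10 of 79 without T148, beside 770 of 13259 genes, 2 of 77 without T231, beside 719 of 13244, and 1 of 76 without T214, beside 197 of 13193. With all 5 sets the 6 genes were Lrit3, Slc9b1, Sec24b, Ube2d3, Mcub and Sgms2. Lrit3 passed the filter through its Tet2KO sets alone, so its p-values in edgeR and DESeq2 are tied to the filter.

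The flanking genes were split evenly in direction, with 40 higher and 39 lower, and their median log2 change was 0.01 beside 0.00 over all genes tested. The median size of the change, whatever its sign, was 0.24 both for them and for all genes. Genes whose 2 Tet2KO sets lay wholly above or wholly below the 3 WT sets made up 26.2% of all genes. The flanking genes had 16 of them, or 20.3%, 11 higher and 5 lower. With 3 against 2 sets, an exact two-sided rank-sum test of a single gene cannot go below p = 0.2, and the median SE of a flanking gene's log2 change was 0.32.

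The size of the change did not decline steadily with distance from Tet2. Within 2 Mb the median size of the change was 0.21 over the 11 genes on the lower-coordinate side and 0.33 over the 8 on the higher-coordinate side. Between 2 and 5 Mb it was 0.28 over 20 genes and 0.15 over 17, and beyond 5 Mb it was 0.27 over 8 and 0.21 over 14. The antisense gene Gm42567, which overlaps the end of Tet2, was left out of these bins. For the 586 tested genes on the rest of chromosome 3 the median size was 0.25, and for the 78 genes within 10 Mb of Tet1, which is not targeted in these sets, it was 0.26.

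**Figure D1:**
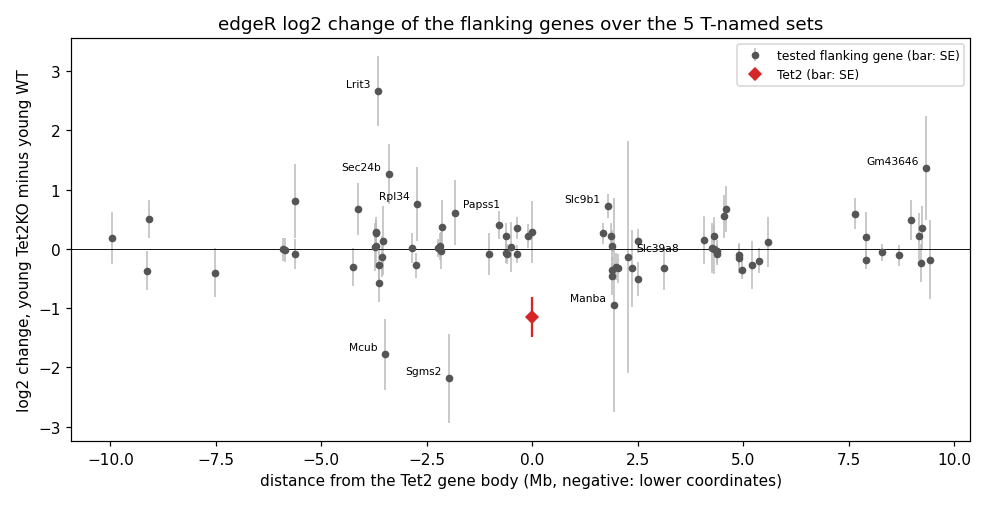
Log2 change (young Tet2KO minus young WT, 5 T-named sets, edgeR) of each tested flanking gene and of Tet2 against distance from the Tet2 gene body in Mb, with bars for the SE. Most points lie near 0 at every distance; Lrit3 at 2.66 is the highest, Sgms2 at -2.18 the lowest, and the bars of Manba (SE 1.80) and Slc39a8 (SE 1.96) are the longest.

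The 5 tested genes closest to Tet2 on the lower-coordinate side differed little between genotypes. Ppa2, a mitochondrial pyrophosphatase 0.09 Mb away, was at 44.7 ± 7.59 CPM in WT (SD, n = 3) and 53.3 ± 6.77 in Tet2KO (SD, n = 2), a log2 change of 0.22. Ints12, a subunit of the Integrator complex that cleaves small nuclear RNAs, was at 123.6 ± 3.82 and 118.8 ± 15.3 CPM. Gstcd, which overlaps Ints12 at its end, was at 20.2 ± 1.66 and 26.3 ± 3.5 CPM, and its sets did not overlap. The long non-coding gene Gm29811 had a log2 change of -0.08, and Npnt, encoding the matrix protein nephronectin, had 0.03.

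On the higher-coordinate side the overlapping Gm42567 had a log2 change of 0.29 ± 0.52 at under 1.2 CPM in each set. After it comes a stretch of 1.67 Mb with no tested gene. Cenpe, the kinetochore motor that aligns chromosomes, was at 228.5, 326.7 and 287.7 CPM in the WT sets and 337.1 and 349.7 in the Tet2KO sets, with a log2 change of 0.26 ± 0.17. The Tet2KO sets were above every WT set, but by less than the range of the WT sets. Cisd2, a gene for an iron-sulfur protein of mitochondrial and reticulum membranes, had 0.22, and Gm43379 had -0.46, each with overlapping sets.

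Differences that followed the knockout label were found in few genes. Sets that did not overlap and differed by 2-fold or more made up 1.44% of all genes in the higher direction and 0.699% in the lower. Of the 79 flanking genes, 2 met this in the higher direction, Lrit3 and Sec24b, and 0 in the lower. For Lrit3 the lack of overlap follows from the filter, which no WT set reached. Single sets moved these results. Without T148 the counts were 4 and 2, and without T214 the log2 change of Sec24b was 0.50. The shares over all genes were not counted with a set left out, and fewer sets overlap less easily. The shares of 1.44% and 0.699% therefore do not apply to the counts without T148.

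Lrit3, which codes for a leucine-rich repeat membrane protein known from retinal synapses, showed the largest log2 change in the window (chr3:129787881-129804030, minus strand). Its level was 0.983, 0.797 and 0.190 CPM in T148, T211 and T231, and 3.47 and 5.07 CPM in T213 and T214. Both Tet2KO sets were well above the 3 WT sets, although single oocytes overlapped: WT oocytes reached 2.16 CPM and 1 oocyte of T213 was at 0.223. The log2 change was 2.66 ± 0.59 (SE), with p = 0.00276 and an adjusted p of 0.665 in edgeR and 0.0249 in DESeq2. No WT set reached the filter of 1 CPM, so part of this difference follows from the filter, and the p-values do not allow for that. These levels are low, since the WT sets held 23, 23 and 5 counts and the Tet2KO sets 123 and 163.

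In the other sets Lrit3 was higher in Tet2KO than in WT but did not separate Tet2KO from Tet1KO. Old Tet2KO set S161 was at 2.13 CPM, above the old WT sets at 0.838 and 0.876. The oocytes of Young_WT__246 had a median of 0.559 CPM and reached 2.1. S161 is 1 set, and these WT sets have numbered names, unlike S161. Young_Tet1-/-_201 and Old_Tet1-/-_209 were also high at 3.52 and 2.51 CPM, while Tet1KO sets T146 and Old_Tet1-/-_315 were at 1.15 and 0.242.

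Sec24b, a component of the COPII coat that carries proteins out of the endoplasmic reticulum, was the second gene (chr3:129982759-130061553). Its level was 25.6, 8.77 and 20.3 CPM in the WT sets against 26.4 and 62.8 CPM in T213 and T214. Only T214 stood clear of WT, as T213 was barely above T148, and on CPM scaled by edgeR's TMM factors the sets overlapped. The log2 change was 1.26 ± 0.51 (SE), with p = 0.0429 and adjusted p = 0.665 in edgeR, and it was 0.50 without T214. Young_Tet1-/-_201 and Old_Tet1-/-_209 were at 67.7 and 59.7 CPM, as high as T214, and old Tet2KO set S161 at 32.3 CPM lay between old WT sets at 34 and 32.2.

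Slc9b1, a sodium-proton exchanger gene known from sperm, had the smallest p after Lrit3 (chr3:135348029-135397827). Its level was 31.9, 45.7 and 44 CPM in the WT sets and 69.9 and 66.3 CPM in the Tet2KO sets. The Tet2KO sets were close to each other and lay above every WT set, with a log2 change of 0.72 ± 0.20, p = 0.00814 and adjusted p = 0.665 in edgeR. In old oocytes S161 at 56 CPM lay between the WT sets at 62.5 and 54.3. Young_Tet1-/-_201 and Old_Tet1-/-_209 were the lowest of all at 20.8 and 18.7 CPM.

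**Figure D2:**
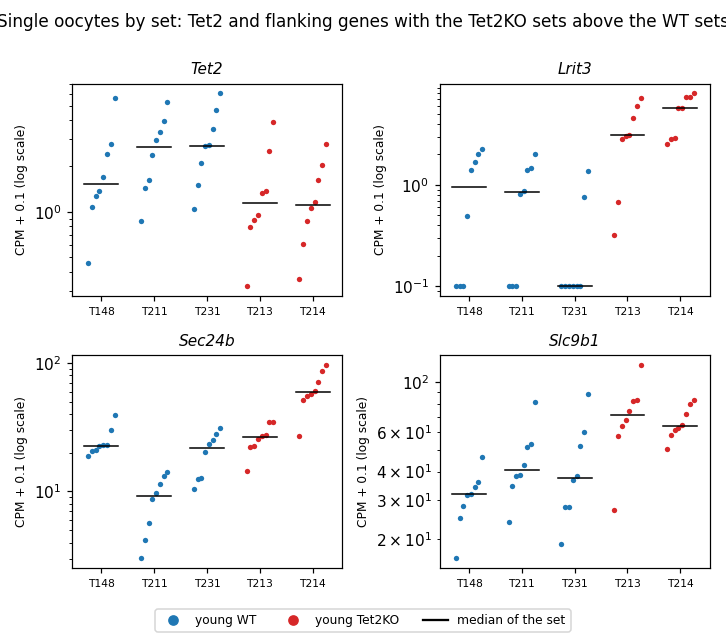
CPM plus 0.1 on a log axis in each single oocyte (point) of the 5 T-named sets, with the median of each set as a line, for Tet2, Lrit3, Sec24b and Slc9b1. The Tet2KO sets T213 and T214 lie low for Tet2 and high for Lrit3 and Slc9b1, with single oocytes that overlap WT, while Sec24b is clearly raised only in T214.

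Other genes whose genotypes did not overlap had smaller differences. Trmt10a, a tRNA methyltransferase, had a log2 change of 0.67. Pdha2, the testis form of the pyruvate dehydrogenase alpha subunit, had 0.59 and Mttp, which loads lipid onto lipoproteins, had 0.55. The pseudogene Gm4617 had 0.51 and Aimp1, a scaffold of the aminoacyl-tRNA synthetase complex, 0.40. Trmt10a and Mttp overlap each other on the genome, and reads there were counted for both.

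Ube2d3 and Eif4e were lower in both Tet2KO sets. Ube2d3, a ubiquitin-conjugating enzyme, had the highest CPM of the window. It was at 3599.0, 3326.3 and 3528.7 CPM in the WT sets and 2958.8 and 2638.4 CPM in the Tet2KO sets, with a log2 change of -0.35 ± 0.12, p = 0.0211 and adjusted p = 0.665 in edgeR. Eif4e, the protein that binds the mRNA cap in translation, was at 456.5 ± 20.9 CPM in WT (SD, n = 3) and 366.6 ± 67.5 in Tet2KO (SD, n = 2), a log2 change of -0.35. Unc5c, a netrin receptor gene, had -0.19, and the pseudogenes Gm5281 and Oaz2-ps had -0.51 and -0.30. In old oocytes Ube2d3 did not separate, with S161 at 3339.3 CPM between WT sets at 3692.2 and 3043.1.

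Of the 5 flanking genes with the highest CPM, the other two were Gtf2b, the general transcription factor TFIIB, and Lamtor3, a part of the lysosomal Ragulator complex. Lamtor3 had a log2 change of -0.09. Scaled by exon length, mean levels over the 5 sets were 131.0 CPM per kb for Ube2d3, 119.4 for Gtf2b, 113.9 for Lamtor3, 70 for Eif4e and 35.5 for Cenpe.

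The largest differences among the flanking genes were between sets of the same genotype. In 5 of the 79 genes every oocyte of some sets lay above every oocyte of the others, with at least a 2-fold step between set medians (CPM plus 0.5). Such a step was found in 277 genes, or 2.06% of all genes tested, beside 6.33% of the flanking genes, 3.85% (3 of 78) of the genes within 10 Mb of Tet1 and 1.19% of the rest of chromosome 3. This rule was written after the values had been seen, so the shares are descriptions. In 0 of the 5 genes did the step run between Tet2KO and WT, which it did in 11 of the 277. T148 against the 4 other sets was the step in 94 of the 277 genes and in 0 of these 5.

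In Mcub, Rpl34 and Papss1 the WT set T148 stood with the Tet2KO sets, and WT sets T211 and T231 stood apart. This division was found in 11 genes of the whole table, and these 3 are all within 3.49 Mb of Tet2 on its lower-coordinate side. The genes have different roles. Mcub encodes a subunit that restrains the mitochondrial calcium uniporter, Rpl34 a protein of the large ribosomal subunit, and Papss1 an enzyme that makes the sulfate donor PAPS. Manba, the lysosomal beta-mannosidase gene on the other side of Tet2, had a different division, which also parted the 2 Tet2KO sets. The bases before the start of each of these 4 genes are shown because the genes share set-specific levels; RefSeq's reference promoters for GRCm38.p6 were read in the direction of the gene, and capitals mark each CG, the dinucleotide whose cytosine TET enzymes oxidise when it is methylated.
Mcub, chr3:129970207-129970456, minus strand: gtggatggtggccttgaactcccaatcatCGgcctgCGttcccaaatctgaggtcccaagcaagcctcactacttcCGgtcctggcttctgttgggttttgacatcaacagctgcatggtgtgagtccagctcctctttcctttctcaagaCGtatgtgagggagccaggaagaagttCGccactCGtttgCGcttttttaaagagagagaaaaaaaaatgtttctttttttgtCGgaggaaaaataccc
Rpl34, chr3:130730399-130730648, minus strand: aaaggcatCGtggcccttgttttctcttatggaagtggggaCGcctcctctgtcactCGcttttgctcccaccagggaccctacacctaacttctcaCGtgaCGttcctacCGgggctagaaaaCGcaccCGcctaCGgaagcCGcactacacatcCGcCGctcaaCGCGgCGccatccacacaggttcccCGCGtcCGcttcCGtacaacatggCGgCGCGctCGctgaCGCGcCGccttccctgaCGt
Papss1, chr3:131564518-131564767, plus strand: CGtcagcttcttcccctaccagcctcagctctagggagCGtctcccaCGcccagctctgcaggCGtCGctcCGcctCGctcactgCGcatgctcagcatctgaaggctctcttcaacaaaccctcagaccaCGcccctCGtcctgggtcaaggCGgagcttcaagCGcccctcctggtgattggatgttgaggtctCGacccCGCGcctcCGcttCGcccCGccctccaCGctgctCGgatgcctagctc
Manba, chr3:135485361-135485610, plus strand: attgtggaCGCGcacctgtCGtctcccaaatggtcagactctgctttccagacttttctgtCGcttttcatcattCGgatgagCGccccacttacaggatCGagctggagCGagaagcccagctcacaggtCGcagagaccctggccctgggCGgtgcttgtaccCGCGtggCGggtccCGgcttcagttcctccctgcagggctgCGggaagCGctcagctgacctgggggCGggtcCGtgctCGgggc
CG was counted on one strand, since it reads the same on both. The 250 bases held 8 CG in Mcub, 27 in Rpl34, 20 in Papss1 and 19 in Manba. Of all 32851 RefSeq promoters of this length, 43% held at least as many as Mcub, 8.56% as many as Rpl34, 17.9% as many as Papss1 and 19.7% as many as Manba. These are reference letters, not those of the animals, and a promoter was found for 119 of the 351 genes.

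Mcub (chr3:129914960-129970206, overlapping no other gene) was at 23.1 CPM in WT set T148, 102.3 in T211 and 105.9 in T231, and at 24.2 and 21.4 CPM in Tet2KO sets T213 and T214. Oocytes of T148 ranged from 17.9 to 31.4 CPM and those of T211 from 77.2 to 119.9 CPM, without overlap. The highest Tet2KO oocyte was at 32.2 CPM. Between-set differences made up 96% of the spread of its log2(CPM + 1) over the 40 oocytes, beside a median of 26.7% for the flanking genes and 25.8% for all genes. The log2 change between genotypes was -1.78 ± 0.60 (SE), p = 0.0212 and adjusted p = 0.665 in edgeR. Without T148 it was -2.21 with an adjusted p of 0.0320 in edgeR, where 11 of all 13259 genes were called. However, T148 is the WT set at the Tet2KO level, so leaving it out widens the difference. The change was -1.53 without T211 and -1.49 without T231, with adjusted p of 0.606 and 0.734 in edgeR. Without T213 or T214 it was -1.87 or -1.69.

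The other sets filled the gap between these levels. Mcub was at 46.0 CPM in Young_WT__246, and at 62 and 73.7 CPM in Old_WT_365 and Old_WT_247. Old Tet2KO set S161 was at 22.8 CPM, as low as the young Tet2KO sets. Among Tet1KO sets, Young_Tet1-/-_201 and Old_Tet1-/-_209 were as low at 16.8 and 19.4 CPM, Old_Tet1-/-_315 was at 31.1 and T146 at 51.0. Low Mcub was thus seen in the Tet2KO sets of both ages, in Tet1KO sets and in 1 WT set.

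Sgms2, a sphingomyelin synthase gene 1.97 Mb from Tet2, showed the same division of the sets at a lower level. It was at 2.56, 16.3 and 18.2 CPM in T148, T211 and T231 and at 2.74 and 2.80 CPM in T213 and T214. The low sets overlapped the high ones slightly in single oocytes, since 1 oocyte of T214 reached 8.59 CPM and 1 of T211 was at 7.13. The log2 change of -2.18 ± 0.75 (SE) had p = 0.0232 and adjusted p = 0.665 in edgeR. Without T148, again the WT set at the Tet2KO level, it was -2.66 with an adjusted p of 0.0339 in edgeR. In that fit 11 of all 13259 genes were called. The change was -1.94 without T211 and -1.79 without T231, with adjusted p of 0.607 and 0.734 in edgeR. Without T213 or T214 it was -2.16 or -2.19. S161 was at 3.40 CPM, below old WT sets at 8.23 and 12.0.

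Papss1, 1.82 Mb from Tet2, was reversed in direction: high where Mcub was low. It was at 240.4, 69.1 and 70.4 CPM in T148, T211 and T231 and at 209.2 and 190.1 CPM in the Tet2KO sets. The highest oocyte of T211 and T231 was at 96.7 CPM and the lowest of the 3 other sets at 121.2 CPM. The log2 change of 0.61 ± 0.55 had p = 0.297 and adjusted p = 0.762 in edgeR. It was 1.5 without T148, with an adjusted p of 0.0681, and 0.31 and 0.32 without T211 and T231. S161 was at 249.2 CPM, above old WT sets at 144.4 and 75.

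Rpl34, 2.73 Mb from Tet2, had the same division at 20.3, 5.44 and 4.64 CPM in the WT sets and 18.3 and 17 CPM in Tet2KO. The highest oocyte of T211 and T231 was at 9.13 CPM and the lowest of the others at 11.1. Ribosomal protein genes have near-identical processed copies elsewhere in the genome, and the files do not show how reads were divided among them, so the count of Rpl34 is uncertain. The log2 change of 0.76 ± 0.62 was 1.79 without T148 and 0.41 to 0.45 without T231 or T211, none of them called. In Young_WT__246, single oocytes ran from 5.62 to 99 CPM.

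Sec24b lies between Mcub and Rpl34 and did not share their division: T211 was the lowest set and T214 the highest. Some other genes of this stretch had genotype differences near 0. Lef1, a transcription factor of Wnt signalling, had a log2 change of 0.02, Hadh, a mitochondrial fatty acid oxidation enzyme, 0.04, and Col25a1, a membrane collagen gene, 0.01. Between-set differences made up 23.8% of the spread over oocytes in Lef1, 7.3% in Hadh and 23.8% in Col25a1, but 44.6% in Ostc, a subunit gene of the oligosaccharyltransferase complex.

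**Figure D3:**
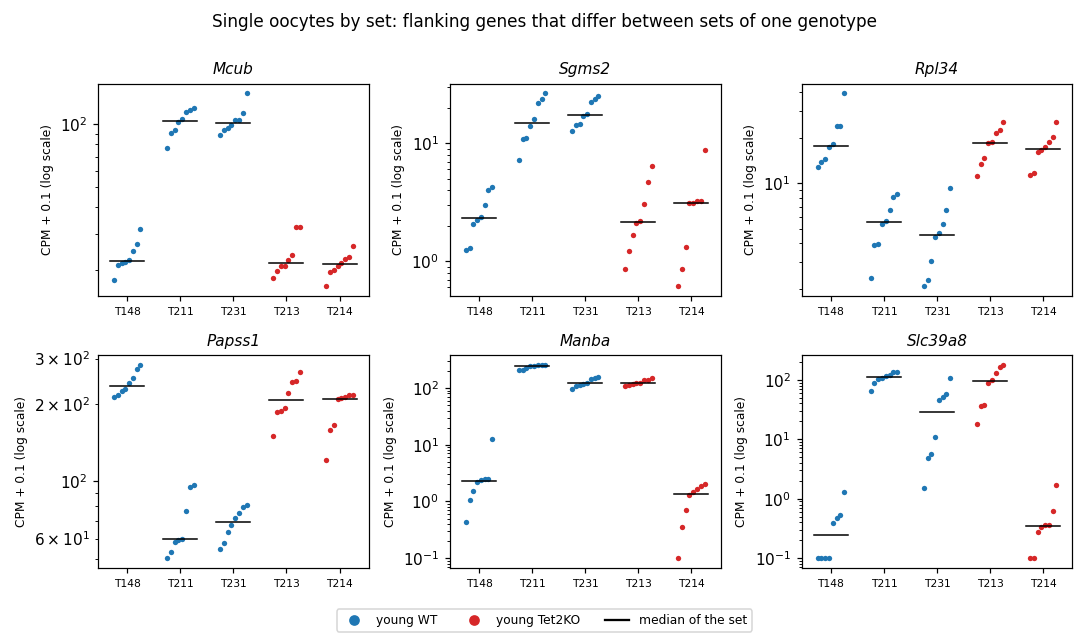
CPM plus 0.1 on a log axis in each oocyte (point) of the 5 T-named sets, with set medians as lines, for 6 flanking genes. T148 (WT) stands with both Tet2KO sets for Mcub, Sgms2, Rpl34 and Papss1, and with T214 only for Manba and Slc39a8.

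Manba and Slc39a8, on the other side of Tet2, divided the sets in a second way. Manba (chr3:135485611-135571404) was at 2.82 CPM in T148, 233.5 in T211 and 125.5 in T231, and at 126.3 CPM in T213 but 1.12 in T214. The 2 Tet2KO sets therefore differed from each other by more than either genotype's mean from the other, 120.6 ± 115.4 CPM in WT (SD, n = 3) and 63.7 ± 88.5 in Tet2KO (SD, n = 2). The lowest oocyte of T211, T231 and T213 was at 95.7 CPM and the highest of T148 and T214 at 12.6 CPM, a 44.5-fold step between the set medians nearest to it. Between-set differences made up 97.3% of the spread over oocytes, the highest share in the window, and of that between-set spread 6.41% lay between genotypes. The log2 change of -0.95 ± 1.80 had p = 0.614 in edgeR, and it was -6.76 without T213 and 0.06 without T214.

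Manba was below 10 CPM in 4 of the 13 sets. Besides T148 and T214 these were old Tet2KO set S161 at 1.54 CPM and Old_Tet1-/-_209 at 1.14 CPM. The other 9 sets were at 61 CPM or more: Young_WT__246, Old_WT_365 and Old_WT_247 were at 79, 102.7 and 86.9 CPM, and Tet1KO sets T146, Young_Tet1-/-_201 and Old_Tet1-/-_315 at 158.4, 61 and 70.5 CPM. Low sets thus occurred in WT, Tet1KO and Tet2KO, and in young and old. In Young_Tet1-/-_201, 1 of 7 oocytes was at 1.23 CPM while the other 6 were at 63 or more. Manba overlaps other annotated genes, one of them the pseudogene Oaz2-ps, which was at 7.39, 6.10, 6.43, 4.97 and 6.03 CPM in T148, T211, T231, T213 and T214.

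Slc39a8, which encodes the zinc and manganese importer ZIP8, lies 2.28 Mb from Tet2 and followed Manba in the T-named sets. It was at 0.256, 108.5 and 42.5 CPM in T148, T211 and T231, and at 93.2 and 0.373 CPM in T213 and T214. T148 held 6 counts and T214 held 12, against 1117 or more in each of the 3 other sets. Oocytes of T231 varied widely, from 1.41 to 109.2 CPM, so the lowest of them lay below the highest oocyte of T214 at 1.61.

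In the other sets the 2 genes did not always go together. Slc39a8 was at 0.272 CPM in S161 and had 0 counts in Old_Tet1-/-_209, the sets that were low for Manba. A count of 0 among the 21107772 counts of set Old_Tet1-/-_209 allows up to 0.142 CPM, which covers counting error only. It was also low where Manba was high: 4.52 CPM in Young_WT__246, 5.08 in T146 and 0.485 in Old_Tet1-/-_315. Among old WT sets, Old_WT_247 was at 50.4 and Old_WT_365 at 11.7 CPM.

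**Figure D4:**
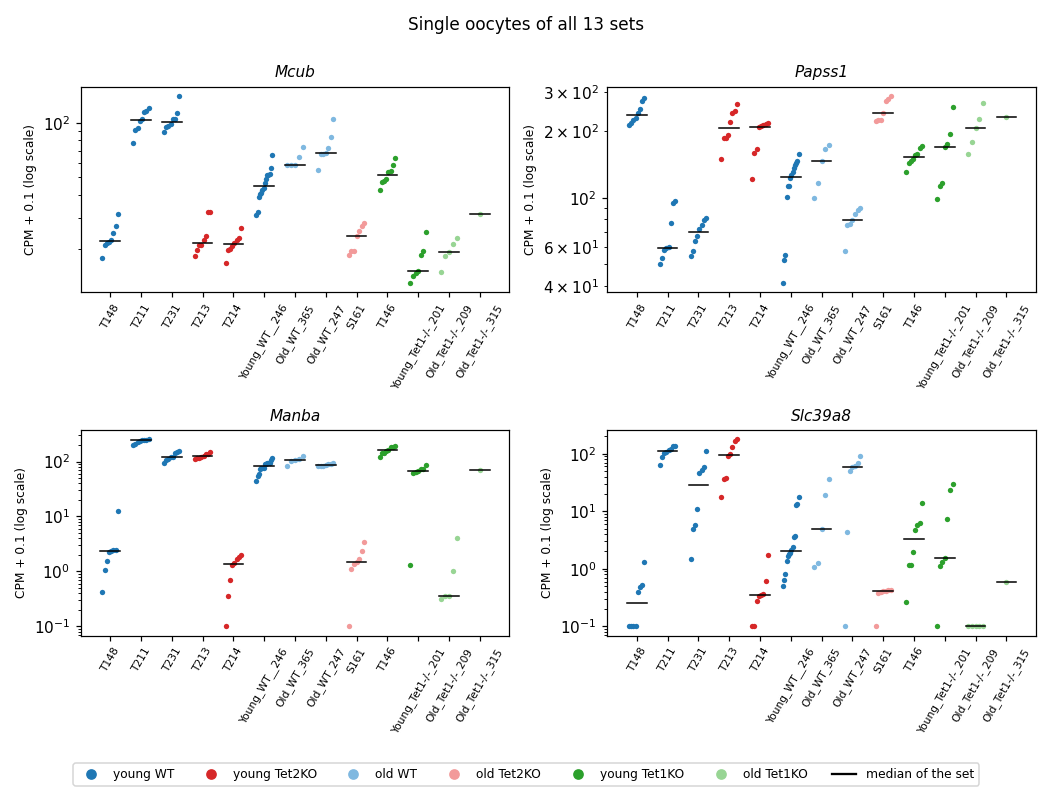
CPM plus 0.1 on a log axis in each oocyte (point) of all 13 sets, coloured by genotype and age, with set medians as lines, for Mcub, Papss1, Manba and Slc39a8. Manba is low in T148, T214, S161 and Old_Tet1-/-_209, which belong to 3 genotypes, and 1 oocyte of Young_Tet1-/-_201 lies at the low level.

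Milder differences of the kind seen in Manba are shown here for 3 genes farther along the chromosome. H2afz, which encodes the histone variant H2A.Z, was at 14.5 CPM in T148 and 21 in T214, and between 34.3 and 36.8 CPM in T211, T231 and T213. Ppp3ca, the catalytic subunit of calcineurin, was at 11.2 and 10.1 CPM in T148 and T214 and between 18.4 and 20.7 CPM in the 3 other sets. Gtf2b was at 443.7 and 318.9 CPM in T148 and T214 and between 603.0 and 688.5 CPM in the others. T148 and T214 were the lowest of the 5 T-named sets for each of these 3 genes, which were grouped here for that order after their values were seen. How many of the flanking genes or of all genes share the order was not counted.

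At the far end of the window Gm43646 and Pkn2 were lowest in T211. T211 against the 4 other sets was the step in 66 of the 277 genes split between sets, and in 1 of the 5 flanking ones, Gm43646. The non-coding transcript Gm43646 was at 0.797 CPM there and between 8.29 and 24.8 CPM in the 4 other T-named sets, with a log2 change between genotypes of 1.36 ± 0.88 that was 0.49 without T214, 0.83 without T211 and 1.89 without T213. Pkn2, a protein kinase gene, was at 47.6 CPM in T211 and between 78 and 135.7 CPM in the others. Between-set differences made up at least 80% of the spread over oocytes in 8 of the 79 genes, beside 271 of all 13455 (2.01%). The 8 were Manba, Mcub, Papss1, Slc39a8, Gm43646, Gtf2b, Pkn2 and Sgms2. The 80% mark was not among the planned comparisons, so these counts are descriptions, and Rpl34 lay just below it at 77.8%. The median shares were close, at 26.7% for the flanking genes and 25.8% for all genes.

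**Figure D5:**
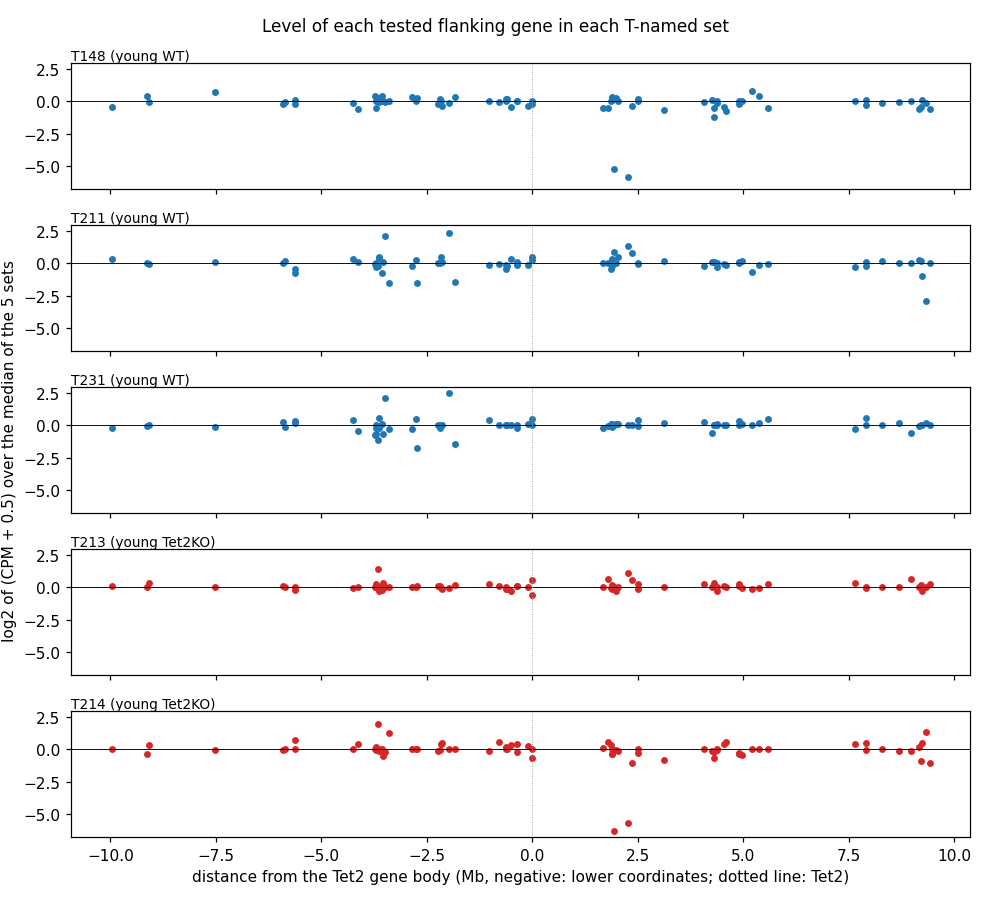
Level of each tested flanking gene and of Tet2 in each T-named set, as log2 of CPM plus 0.5 over the median of the 5 sets, against distance from Tet2 in Mb. T148 and T214 share 2 very low genes near 2 Mb (Manba and Slc39a8), and T211 and T231 share high and low genes on the lower-coordinate side (Mcub, Sgms2, Rpl34 and Papss1), which T148, T213 and T214 lack.

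The flanking genes were also read by role, in 7 lists. None of the lists had a called gene in either direction. In the list of mitochondria, 6 of 7 genes in the window were tested, 5 higher and 1 lower, with a median log2 change of 0.21, and the lower one was Mcub. For RNA and protein synthesis all 13 genes were tested, 7 higher and 6 lower, with a median of 0.14. Gar1, a protein of the snoRNPs that guide pseudouridylation, had the lowest value there at -0.58 ± 0.31. The median over all genes tested was 0.00.

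For the secretory pathway and ubiquitin, 7 genes were tested, 1 higher and 6 lower, with a median of -0.27, and the higher one was Sec24b. For alcohol and lipid metabolism 7 of 15 genes were tested, 2 higher and 5 lower, with a median of -0.10. Adh5, the alcohol dehydrogenase that clears formaldehyde, was at 270.3 CPM in WT and 258.4 in Tet2KO. For signalling 13 of 18 were tested, 6 higher and 7 lower, with a median of -0.04, and Nfkb1 had -0.33 ± 0.25. For chromatin and chromosomes 3 of 5 were tested, with Zgrf1, a helicase gene, at -0.02. Of the 5 guanylate-binding protein genes in the window, which interferon induces, only Gbp7 was tested, with 0.49 ± 0.34.

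Purified primordial germ cells at E13.5 (embryonic day), from 4 to 6 pooled embryos per group, gave 1 WT library and 1 library labelled Tet2KO, so differences there have no replicate check. In such pooled cells, fewer cells with a transcript and less of it per cell cannot be told apart. The values are FPKM, which scale fragments by the length of the gene and the size of the library. Of the germ cell markers, Dazl was at 359.3 FPKM in WT and 367.12 in the library labelled Tet2KO, and Ddx4 at 128.38 and 93.69. Of the other cells' markers, Wt1 of the gonadal soma was at 21.7 FPKM in WT and 9.45 in the library labelled Tet2KO, and the haemoglobin gene Hba-a1 at 1192.46 and 382.4. Nr5a2, from the cumulus and granulosa list, was higher in the latter, at 8.75 and 13.68. The authors' deposited table holds 96 of the 351 genes, and 51 of them reached 1 FPKM in either library. At 2-fold or more, 1.22% of all 12577 such genes were higher in the library labelled Tet2KO and 5.08% lower. Of the 51 flanking genes, 2 were higher and 3 lower, and the median of the authors' log2 ratio was -0.02, beside -0.07 over all genes.

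Most genes named above differed little between the germ cell libraries. Tet2 was at 3.19 FPKM in WT and 2.96 in the library labelled Tet2KO, a log2 ratio of -0.11 in the authors' deposited table, so the label is not visible in the level of Tet2. Rpl34 was at 140.04 FPKM in WT and 1147.13 in the library labelled Tet2KO, a log2 ratio of 3.03 in the authors' deposited table. Papss1 was at 25.52 and 17.81 FPKM, Manba at 2.47 and 3.14, Sgms2 at 3.22 and 2.93, and Sec24b at 14.63 and 14.58. Mcub was low in both at 0.16 and 0.09 FPKM.

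The other genes past 2-fold were at low levels. Each reached 1 FPKM only in the library where it was higher, so its difference is tied to the filter. Adh1, an alcohol dehydrogenase gene, was at 1.21 FPKM in WT and 0.24 in the library labelled Tet2KO, and Emcn, an endothelial sialomucin gene, at 1.29 and 0.41. The part of cells marked by Wt1 and Hba-a1, both lower in the same library, was not tested. Mir302d and Mir1956 were each at the table's smallest value, 0.01 FPKM, in one library and under 2 FPKM in the other.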

How the data were processed

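The authors deposited gene counts per oocyte, unnormalized, in 2 tables. Per the file headers, the counter was featureCounts 1.6.2 with the GENCODE release 17 annotation; it kept reads of mapping quality 30 or more, ignored strand, was set to admit multi-mapped reads, and counted reads that overlap several genes for each of them. HISAT2, SAMtools and mm10 are named in the submitters' processing notes, without versions. The germ cell table holds FPKM and a log2 ratio computed by the authors, of unknown depth. Its rows were matched to the counts by gene ID through RefSeq symbols for 18453 of 19004 rows and by symbol for others, 18743 in all.

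Of 135 labelled samples, 39 whose titles match no column of the table they name were not assigned to a group, and 39 columns of per-sample values were not used. Among 140 pairs of oocytes within the T-named sets, 0 were identical, and the lowest chi-square per degree of freedom was 4.46. Counts of the oocytes of a set were summed. In R 4.3.3, edgeR 4.0.16 (TMM normalization, quasi-likelihood test, 1 mean per group) compared the 5 T-named sets over all genes with at least 1 CPM in at least 2 sets, with 3 residual degrees of freedom and a common biological coefficient of variation of 0.281. Benjamini-Hochberg adjustment ran over all 13455 genes, with a threshold of 0.05. On simulated counts for 13141 genes in this comparison, 38% of 50 genes changed 2-fold and 98% of 50 changed 4-fold were called. The changed genes were drawn from well-counted genes only, with counts above those of Tet2 and Lrit3. Their spread was set by mean level alone. These shares therefore do not carry over to low genes or to genes with set-specific levels, such as Mcub and Sgms2. Levels are CPM on the total of all genes, and overlap between sets was read on them. The old Tet2KO set and the germ cell libraries, 1 per group, were described without a test. DESeq2 1.42.0, limma 3.58.1, other filters, scalings, windows and sets were tried as alternatives.

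Genes named are Tet2; called genes; up to 8 per direction whose sets do not overlap, at a mean of 1 CPM or more; the 5 tested genes nearest Tet2 on each side; the 5 of highest CPM; and the 2 of smallest p in each of 7 lists. Rpl34, Papss1, Manba, Slc39a8, Gm43646 and other genes beyond this rule were chosen after their values were seen. The window, the lists and the rule were chosen with earlier results of these data known.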

Additional observations from a re-analysis of the deposited data

Results flagged for a closer look

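Single oocytes stood far from the others of their set in several of the 11 genes looked at over 121 groups of 4 to 10 oocytes, by Dixon's criterion, which chance meets in about 1 of 20 groups. In Manba, 1 oocyte of Young_Tet1-/-_201 was at 1.23 CPM with the next at 63, 1 of Old_Tet1-/-_209 at 3.94 CPM with the next at 0.929, and 1 of WT set T148 at 12.6 CPM with the next at 2.39. In Slc39a8, the highest oocytes were at 1.20 CPM in T148, 1.61 in T214 and 13.8 in T146, and the lowest oocyte of S161 was at 0.0 CPM. Slc39a8 had only 6 counts in all of T148, 12 in T214 and 6 in S161, where the highest oocyte was at 0.331 CPM. Values there step by single reads, which the rate of 1 in 20 does not allow for. The highest oocyte of Mcub in T231 was at 140.6 CPM, that of Rpl34 in T148 at 39.3, that of Sgms2 in T214 at 8.59 and that of Gm43646 in Old_WT_365 at 38. For Tet2, 1 oocyte of Tet2KO set S161 was at 4.93 CPM with the next at 1.32, and 1 of T148 was at 5.52 CPM.

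Of 36 genes compared between ages, 3 had their Tet2KO sets on opposite sides of WT in young and old oocytes. Only genes whose young sets did not overlap could meet this, and the share over all genes was not counted. These differences between ages were not tested. The old Tet2KO group is 1 set, and the old WT sets have numbered names, unlike S161. Aimp1 was above WT in young and had a log2 ratio of -0.12 in old oocytes, with S161 at 5.85 CPM and old WT at 6.34 and 6.35. For Eif4e, S161 was at 386.5 CPM and old WT at 347.1 and 355.2. Gm5281 and Eif4e were below WT in young and had log2 ratios of 1.21 and 0.14 in old.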

How the results depend on the processing

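The call of 0 flanking genes higher and 0 lower held with DESeq2's size factors in edgeR, limma-trend, a filter of 5 CPM, all 13 sets with a naming series term, the 7 T- and S-named sets, limma on the oocytes' mean log2 CPM, a 5 Mb window and without overlapping genes. DESeq2 called 1 higher (Lrit3), with 42 genes called in all. No filter on low counts called 3 higher (Lrit3, Sec24b, Gm43646) and 3 lower (Mcub, Sgms2, Manba), as the total rose from 6 to 331 genes. Leaving out 1 WT set gave 0 higher and 0 to 2 lower. The 2 (Mcub, Sgms2) came without T148, where 11 of all 13259 genes were called. The count of non-overlapping genes of 2-fold or more, 2 higher and 0 lower, became 1 and 1 with DESeq2's size factors, 1 higher with TMM-scaled CPM (chosen after seeing the data), at 5 CPM and with all 13 sets, 5 and 5 with no filter, and 1 lower with limma on oocytes. Over the WT sets left out it ran from 2 (without T211) to 4 (without T148) higher and from 0 to 2 (without T148) lower. The shares over all genes were not counted in these settings.

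The median change of 0.01 was -0.05 at 5 CPM and 0.07 with limma on oocytes, and -0.05 to 0.09 over the sets left out. Tet2 kept its direction, from -1.26 to -0.71, and was not tested at 5 CPM. The 5 genes whose oocytes split between sets were 3 at a 4-fold step and 2 without overlapping genes, both chosen after seeing the data. For the other named genes, 418 of 442 values kept direction and call, and 15 changed sign. With all 13 sets Zgrf1 was at 0.01 and Slc39a8 at 0.17, and with limma on oocytes Zgrf1 was at 0.09. With 1 set left out, the range crossed 0 for Gm29811 (-0.18 to 0.03), Npnt (-0.39 to 0.37), Zgrf1 (-0.08 to 0.06), Ints12 (-0.22 to 0.04), Gtf2b (-0.88 to 0.22), Lamtor3 (-0.26 to 0.07), Manba (-6.76 to 0.06) and Slc39a8 (-7.07 to 1.10). The cause was not tested. Depth limits the low genes: Tet2 had 38 to 84 counts per T-named set. No paired analysis was possible because the sets of the genotypes carry different identifiers.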
